A study of Labrus bergylta with 25 samples.

Results

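The genes set apart by an empty gut were 100 genes of the ballan wrasse. Their mean level in empty intestines stood farthest from those under all 3 kinds of filling, relative to the spread within groups. Of 20208 genes listed, 19033 exceeded a value of 10 in 5 or more of the 25 libraries, and the members were chosen from these. For each gene the 4 group means of log2(value + 1) were sorted, and a gene was kept where the largest of the 3 gaps left the empty group alone at one end. This held for 3678 genes (19.3%), and the 100 with the highest ratio of that gap to the pooled within-group standard deviation were taken as members. The values that chose the members are therefore the same values described here. Counts of members called in the fit across all genes are a description, and nothing is read from them.

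RNA came from the bulbous, the wide foremost gut region called Segment 1, in isolated intestines of juvenile females. Each library is 1 fasted fish, whose gut was flushed and then kept for 1 h at 14 °C in Ringer's solution. The Proteins group (n = 6) held casein digested with trypsin to which a protease inhibitor was added, and the Lipids group (n = 6) held cod liver oil digested with lipase and mixed with Tween. The Cellulos group (n = 7) held cellulose in water with a blue dye, and the Empty group (n = 6) received no bolus. Each bolus amounted to 0.1% of the body weight. In this design the presence of a bolus and the presence of its liquid cannot be told apart. Within a single group, filling also cannot be told apart from the dye (Cellulos), the detergent (Lipids) or the heat-deactivated enzyme (Proteins and Lipids). The same holds for the added inhibitor of proteases and phosphatases (Proteins). A value is a read number scaled by a size factor, so that values compare libraries within a gene and not genes of different length with each other.

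The gut wall of fish, as of other vertebrates, holds an absorptive epithelium, smooth muscle and a network of enteric neurons, and the wrasse has no stomach, so its bulbous takes up the meal directly. Filling is known to act on the gut wall through stretch-sensitive neurons and muscle as well as through sensing of nutrients by the epithelium. The comparison asks which genes had 1 level in the empty segment and another under protein, lipid and cellulose alike. In pieces of whole gut wall, fewer cells of a type and less RNA per cell cannot be told apart. Gene names could not be given, since 0 of the 20208 identifiers were found in the reference table of 31208 wrasse genes used here, and for the same reason the tissue was not checked against marker genes.

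Depth, in the 23 libraries whose reads were recovered, ranged from 10160088 to 31586869 reads on the listed genes (median 14045703). Empty library 30 had 13885582 reads, and Empty library 19 was not among the 23. The empty group held the 2 libraries with the most genes listed at 0, which were 803 genes in Empty library 19 and 1003 in Empty library 30, compared to 91 to 239 in the other 4 empty libraries and 89 to 659 in the 19 bolus libraries. Over all genes tested these same libraries lay farthest from the rest of their group, with a root mean square deviation of 0.97 and 0.96 on the log2 scale, compared to 0.69 to 0.80 for the other empty libraries. The members' median gap, differences, correlation and choice, the named gaps and the counts of called genes are also given without them.

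Most members were lower in the empty gut. Of the 100 members, 67 had the empty group below all 3 boluses and 33 had it above. Among all 3678 genes that set the empty group alone, 2091 (56.9%) had it below. The lists of 100 genes chosen in the same way for the other groups held 69 genes with protein below, 70 with lipid below and 59 with cellulose below. With a mean value of at least 50 the empty list held 52 genes below and 48 above. The gap to the nearest bolus mean ranged from 0.09 to 2.25 on the log2 scale with a median of 0.57, which corresponds to a 1.48-fold difference. Members with the empty group below had a larger median gap, 0.73, than those with it above, 0.30. Against each bolus in turn, the lower members had a median log2 difference (empty minus bolus) of -0.90 for protein, -0.85 for lipid and -0.82 for cellulose, whereas the median over all genes tested lay between -0.02 and 0.00. For the higher members the corresponding medians were 0.49, 0.31 and 0.34. These 3 differences share the empty libraries and are given side by side only. Without Empty libraries 19 and 30 the median gap of the same 100 genes was 0.39, with 0.43 for the lower and 0.24 for the higher members. The medians against protein, lipid and cellulose were then -0.53, -0.48 and -0.54 for the lower members and 0.36, 0.28 and 0.26 for the higher ones.

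**Figure D1:**
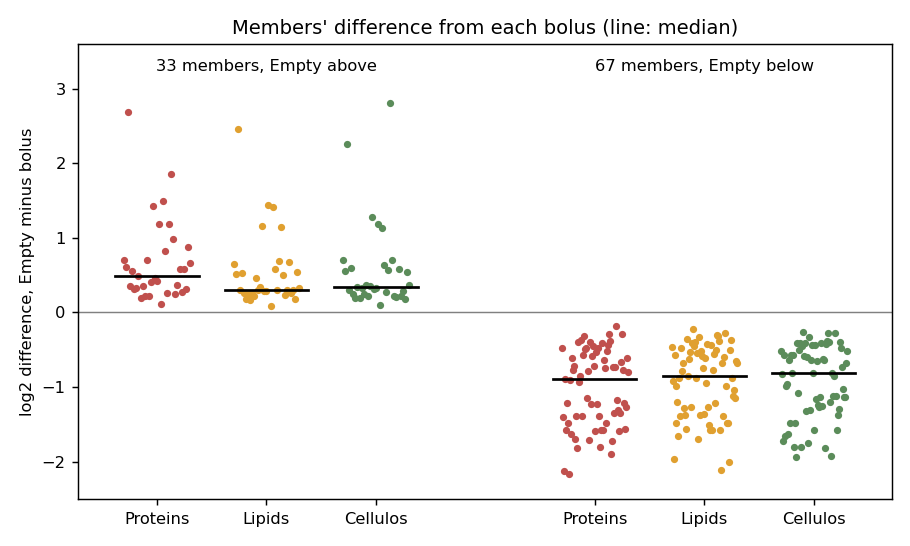
Log2 difference between the mean of empty intestines and the mean of each bolus group (y axis), for the 33 members with the empty group above and the 67 with it below. Points are genes and the black line is their median. The 33 lie above 0 and the 67 below 0 because the rule chose them so.

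In most of these genes the 3 boluses lay closer together than the gap to the empty gut. The rule asks only that neighbouring bolus means lie less far apart than that gap. The range of the 3 bolus means had a median of 0.17 on the log2 scale over the members, and a median of 0.27 times the gap. In some members it exceeded the gap, as in LABE_00082100-RA (1.66 beside 1.14) and LABE_00051520-RA (0.61 beside 0.57). Lipid was the bolus nearest to the empty gut in 49 members, cellulose in 38 and protein in 13. Protein was nearest in 3 of the 33 members above and 10 of the 67 below, lipid in 18 and 31, and cellulose in 12 and 26. The same counts were not made over all genes that set the empty group alone. Nothing is therefore read from them as a trait of the members.

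The member with the highest ratio was LABE_00006972-RA, with a ratio of 2.46. Its value in the 6 empty intestines ranged from 414 to 494 (median 445), compared to 519 to 775 (median 601) with protein, 486 to 796 (median 597) with lipid and 607 to 741 (median 636) with cellulose. Only 1 bolus library, Lipids library 21 at 486, fell within the range of the empty libraries. The means were 451 ± 35.9 (SD, n = 6) when empty, 631 ± 111 (SD, n = 6) with protein, 625 ± 107 (SD, n = 6) with lipid and 647 ± 44.8 (SD, n = 7) with cellulose. The gap to lipid, the nearest mean, was 0.46 on the log2 scale against a pooled SD of 0.19.

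LABE_00071786-RA, the other leading gene that was lower when empty, had values from 28.7 to 53.1 (median 41.1) in empty intestines. With protein its values were 98.0 to 124 (median 107), with lipid 54.6 to 97.6 (median 79.8) and with cellulose 28.6 to 107 (median 76.6). All protein and lipid libraries lay above all empty ones, and Cellulos library 27, at 28.6, was the single bolus library inside or below the empty range. Its means were 41.3 ± 10.1 (SD, n = 6) when empty, 108 ± 10.1 (SD, n = 6) with protein, 78.1 ± 14.9 (SD, n = 6) with lipid and 77.1 ± 26.1 (SD, n = 7) with cellulose. The boluses were less alike here than in the first gene, with bolus means 0.58 apart on the log2 scale beside a gap of 0.82.

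Of the genes that were higher when empty, LABE_00077850-RA led with a ratio of 1.72. Its values ranged from 258 to 487 (median 410) in empty intestines, from 191 to 341 (median 213) with protein, from 164 to 339 (median 241) with lipid and from 143 to 336 (median 228) with cellulose. The groups overlapped, since 7 of the 19 bolus libraries reached the lowest empty value. Mean values were 381 ± 88.1 (SD, n = 6) when empty, 233 ± 54.2 (SD, n = 6) with protein, 245 ± 72.6 (SD, n = 6) with lipid and 235 ± 66.3 (SD, n = 7) with cellulose, a gap of 0.66 on the log2 scale. LABE_00027932-RA followed, at 53.9 to 79.9 (median 65.4) when empty, 33.5 to 65.7 (median 37.6) with protein, 35.3 to 61.3 (median 47.2) with lipid and 34.8 to 56.5 (median 44.3) with cellulose. Here 5 bolus libraries reached the empty range, and the gap was 0.51.

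**Figure D2:**
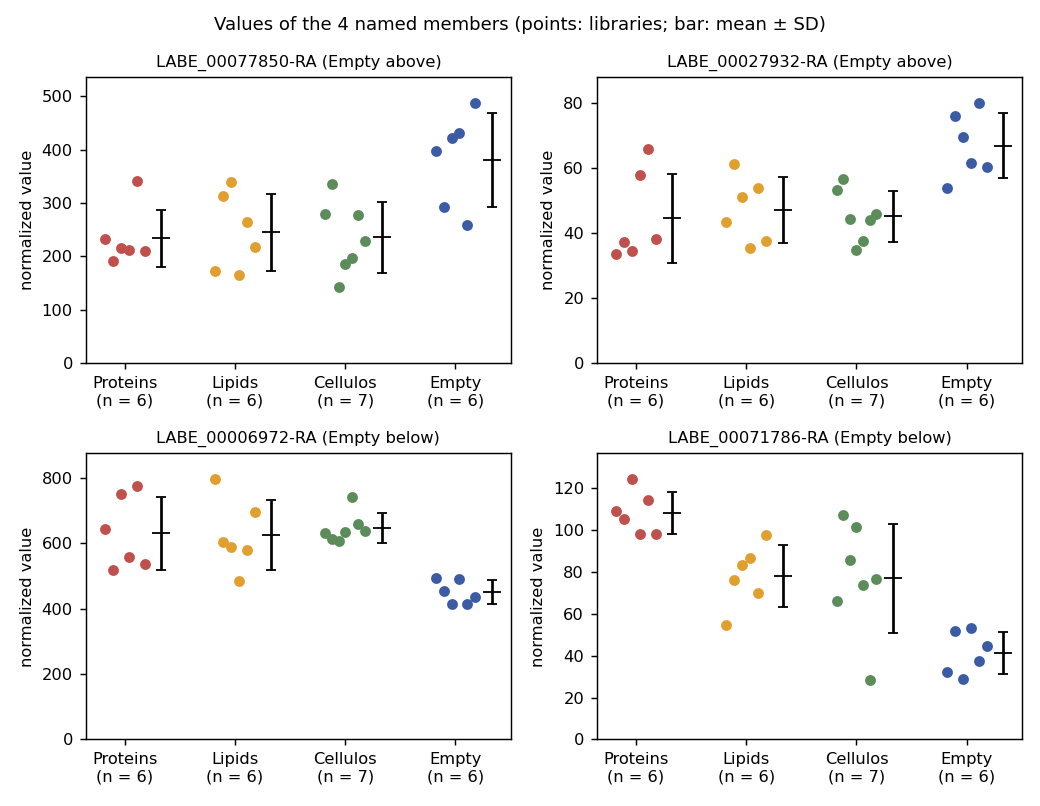
Normalized value (y axis, from 0) of the 2 leading members in each direction, by group. Points are libraries and the bar is the mean ± SD (n = 6, 6, 7 and 6). In the 2 lower panels 1 bolus library each reaches the empty range, and in the 2 upper panels 7 and 5 do.

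No member had all 6 empty libraries beyond all 19 bolus libraries. The same was true of all 19033 genes tested, of which 0 (0%) showed such a separation in either direction. A looser measure is the midpoint between the empty mean and the nearest bolus mean. All 6 empty libraries lay past it in 5 members, 5 did in 26 members and 4 or fewer did in the other 69. In most members, then, some empty libraries lay short of the midpoint. At the members' median ratio of 1.40 the midpoint is less than 1 pooled SD from the empty mean. Even spread alone would leave some libraries short of it, so these counts do not show reliance on a few libraries.

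The largest gap gave the plainest case of unequal empty libraries. It belonged to the member of rank 15, singled out here after its values were seen, in which the empty group was above with a gap of 2.25 on the log2 scale and a 4.77-fold difference. Its values were 9580 in Empty library 26 and 9686 in Empty library 30. In the other 4 empty libraries they were 169, 179, 234 and 403, compared to 89.5 to 244 in the bolus libraries. The empty mean of 3375 ± 4848 (SD, n = 6) thus rested on 2 fish, and of the other empty values only 403 lay above the boluses.

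The empty libraries contributed unequally over the whole list. With ties counted for each library, Empty library 30 held the most extreme of the 6 values in 46 members and Empty library 19 in 31, whereas Empty library 15 did so in 1. In 9 members libraries were tied, and without these the counts were 37, 22 and 1. At least 1 of libraries 19 and 30 held the most extreme value in 68 of the 100 members. Members that lay past the midpoint numbered 87 in Empty library 30, 83 in library 19, 76 in library 24, 71 in library 26, 53 in library 12 and 39 in library 15. In the bolus libraries they numbered 7 to 28, with a median of 10. Expressed as the mean distance from the boluses in units of the pooled SD, signed towards the empty group, the empty libraries reached 1.67 ± 0.69 (SD, n = 6) and the bolus libraries 0.00 ± 0.24 (SD, n = 19). Both means follow from the choice of genes and from measuring the distance from the bolus means. Only the differences between libraries of a group are described by them.

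**Figure D3:**
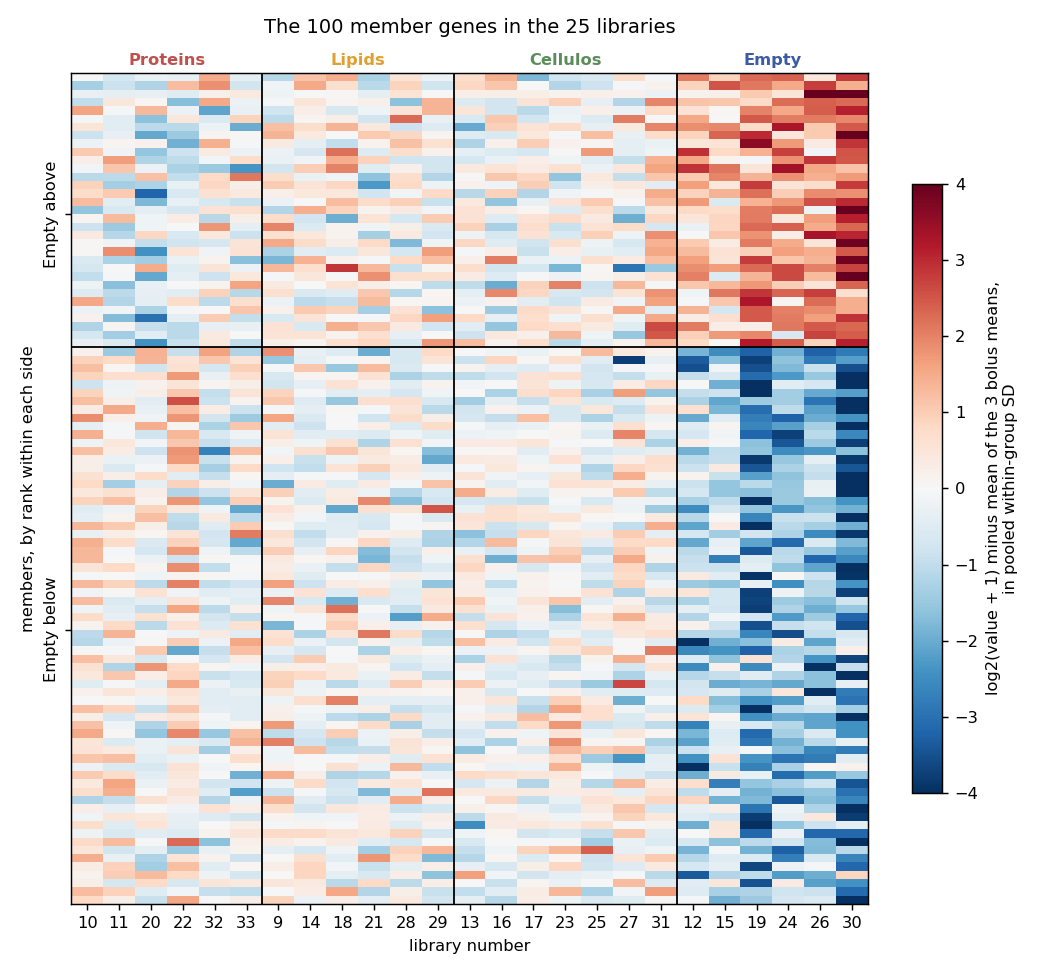
Each of the 100 members (rows, by rank within each side) in each of the 25 libraries (columns). Colour gives log2(value + 1) minus the mean of the 3 bolus means, in units of the pooled within-group SD. The strongest colours lie in Empty libraries 19 and 30, and Empty libraries 12 and 15 are paler.

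Low values took part mainly on the lower side. The mean value was under 50 in 35 of the 67 members that were lower when empty and in 8 of the 33 that were higher, and it was under 50 in 28.8% of all genes tested. Where the gap exceeded 1 on the log2 scale, as in 25 lower and 5 higher members, the median of the mean values was 12.02. In 26 of these 30 members the mean was under 50, and in the other 4, the member of rank 15 among them, it was 91.1 to 1249. The 41 members with a gap under 0.5 had a median of 260. At least 1 empty library was listed at 0 in 20 of the lower members and in none of the higher ones. Empty library 30 was at 0 in 16 members and Empty library 19 in 11, whereas each bolus library was at 0 in at most 1. These contrasts are largely fixed by the choice, since a member with the empty group above can hardly hold an empty library at 0. Low members on the lower side could also pass the filter on values through bolus libraries alone. Nothing is therefore read from zeros compared between the sides, or between empty and bolus libraries. What part the genes at 0 have in the pattern was not tested.

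Without Empty libraries 19 and 30, 34 of the 100 members were still chosen by the rule. Leaving out Empty library 19 alone kept 49 members, and leaving out Empty libraries 26, 30, 24, 12 or 15 kept 50, 53, 61, 66 and 67. A bolus library mattered less, with 73 to 91 members kept. The lists of the other groups likewise depended more on their own libraries. Leaving out a library of the list's own group kept 47 to 68 genes for protein, 50 to 64 for lipid and 54 to 67 for cellulose. Leaving out any other library kept 62 to 94, 66 to 90 and 66 to 88. This is therefore not particular to the empty list. For the empty list, group medians in place of means kept 41 members. The 4 named genes kept their direction. They had been picked for a high ratio on these same libraries, so nothing is read from that. Without libraries 19 and 30 their gaps were -0.42 for LABE_00006972-RA, -0.74 for LABE_00071786-RA, 0.51 for LABE_00077850-RA and 0.53 for LABE_00027932-RA on the log2 scale.

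The pattern was next looked for in libraries that had no part in choosing the genes. Each library was left out in turn, the 100 genes were chosen again from the other 24, and the genes in which the library left out lay on the empty side of the midpoint were counted. Empty libraries 30, 24, 19, 12, 26 and 15 then lay on the empty side in 39, 36, 32, 21, 21 and 11 of 100 genes, with a median of 26.5. Before, when each library took part in the choice, the median was 73.5. The 19 bolus libraries, left out in the same way, lay on the empty side in 11 to 53 genes, with a median of 25. The 2 ranges overlapped, and 7 of the 19 bolus libraries lay above the median of the empty ones. The highest count of all, 53, belonged to Cellulos library 31.

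**Figure D4:**
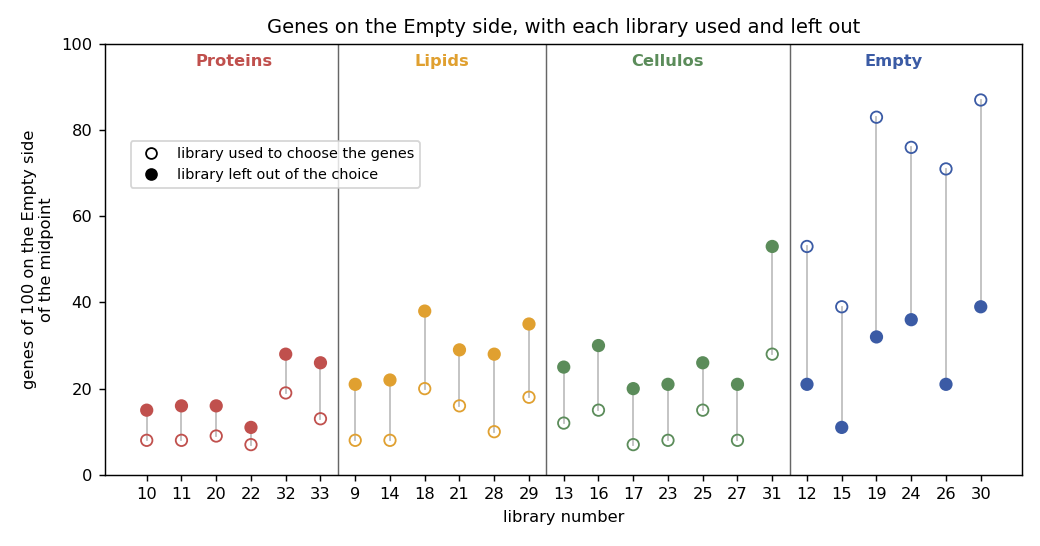
Number of the 100 genes (y axis) in which each library (x axis) lay on the empty side of the midpoint, when the library was used to choose the genes (open circles) and when it was left out (filled circles). The empty libraries drop from 39 to 87 genes to 11 to 39, within the 11 to 53 of the bolus libraries left out.

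A left-out empty library lay beyond the nearest bolus mean, towards the empty side, in 44 to 59 of 100 genes (median 52.5), and a left-out bolus library in 27 to 67 (median 55). Over all genes that set the empty group alone in the other 24 libraries, a left-out empty library lay past the midpoint in 28.3% to 46.7% of them and a left-out bolus library in 25.8% to 50.4%. In all 3 counts the empty and the bolus libraries overlapped. The 2 libraries kept out together, 19 and 30, lay past the midpoint in 31 and 33 of the 100 genes chosen without them.

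The genes set apart by the other groups were chosen in the same way for comparison. Protein stood alone in 3772 genes, cellulose in 3952 and lipid in 2135, and in 5496 genes the largest gap parted 2 groups from the other two. The ratio of gap to spread was 1.40 at rank 50 of the empty list, compared to 1.36 for protein, 1.26 for cellulose and 1.02 for lipid. At rank 100 it was 1.24 for the empty list and 1.23 for protein. When left out, libraries of the group concerned lay on the side of their own group in a median of 35 genes for protein, 39 for cellulose, 23.5 for lipid and 26.5 for the empty list. Libraries of the other groups lay on the side of the group set alone, and not of their own, in a median of 24, 32.5, 35 and 25 genes. These are descriptions of lists that the same libraries chose, and whether the lists differ was not tested.

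**Figure D5:**
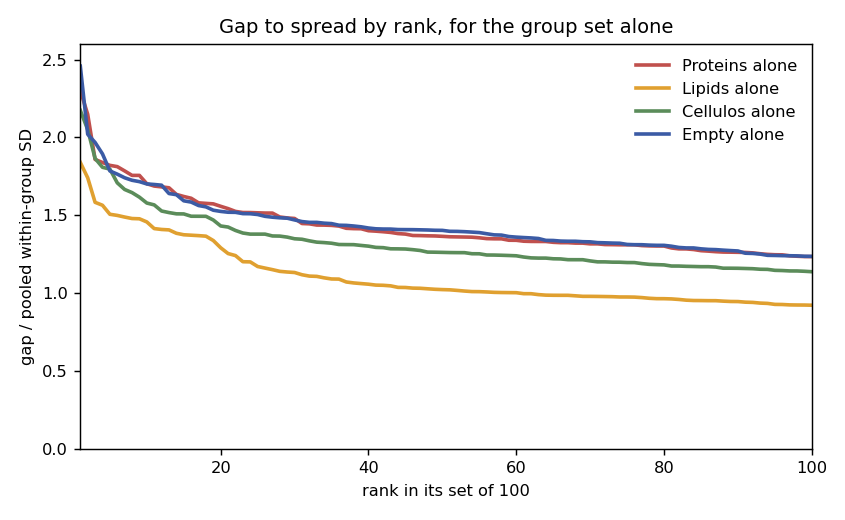
Ratio of the largest gap to the pooled within-group SD (y axis) by rank (x axis), for the 100 genes that set each of the 4 groups alone. The curves for the empty gut and for protein nearly coincide, ending at 1.24 and 1.23, and the curve for lipid is lowest.

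In the fit across all genes, the empty gut was compared to the mean of the 3 boluses with limma. Of the genes tested, 289 (1.52%) had an unadjusted p under 0.01, 112 (0.588%) higher and 177 (0.93%) lower when empty. With limma 0 genes passed a Benjamini-Hochberg adjusted p under 0.05 (lowest 0.181), and 1341 passed 0.05 before adjustment. Leaving out Cellulos library 27 alone gave 1 gene with limma, at an adjusted p of 7.4e-04. Leaving out any other single library gave 0. On the recovered reads of 23 libraries, edgeR gave 1 gene at an adjusted p under 0.05 and DESeq2 gave 4. The single edgeR gene was the member of rank 15 that was high in 2 fish, and 3 of the DESeq2 genes were members. The rule had picked these members on the same libraries. Without Empty library 30 the 289 genes fell to 180, and without libraries 19 and 30 to 142. Members among the 289 numbered 92, of which 28 were higher and 64 lower when empty. As the rule used this contrast, nothing is read from that.

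Single boluses gave fewer members each. Between the empty gut and protein, 63 members had an unadjusted p under 0.01 with limma, compared to 2.77% of all genes. Of these members 23 were higher (1.5% of all genes) and 40 lower (1.27%) when empty. For cellulose the count was 39 (0.919% of all genes), with 8 higher (0.368%) and 31 lower (0.552%). For lipid it was 32 (0.788% of all genes), with 6 higher (0.284%) and 26 lower (0.504%). The rule used these contrasts too, and nothing is read from the counts. Without libraries 19 and 30 the genes for protein went from 528 to 288, those for cellulose from 175 to 124 and those for lipid from 150 to 159. At a Benjamini-Hochberg adjusted p under 0.05, limma on all 25 libraries called 3 genes for protein. With 1 library left out that count ranged from 0, as without Proteins library 10, to 14 without Empty library 15. On 23 libraries limma called 0, edgeR 0 and DESeq2 50. An unadjusted p under 0.05 was found for 1867 genes with limma on 25 libraries, 1719 with limma on 23 and 1841 with edgeR.

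Within groups the members varied together only loosely. After subtraction of the group means, pairs of members on the same side had a median Pearson correlation of 0.17 over the 25 libraries, and pairs on opposite sides -0.12. Without Empty libraries 19 and 30 these medians were 0.08 and -0.05. Between a member and any other gene tested the median was 0.00, as it was over all pairs of genes. Correlations above 0.5 made up 10.04% of the same-side pairs and 2.10% of the pairs of a member with another gene. The first pairs are sorted by direction and the second are not, and the members were chosen on these libraries. These 2 shares are therefore not like for like. In 2 of the 4950 pairs the correlation exceeded 0.8, with a pseudocount of 5 in none. These correlations share the libraries and their scaling, and genes are not independent replicates.

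At the limit of the list, the gene of rank 100 had a ratio of 1.236 and a gap of 0.52, and that of rank 101, just outside, a ratio of 1.232 and a gap of 1.04 on the log2 scale. Both were lower in the empty gut.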

How the data were processed

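The authors trimmed reads with Trim Galore 0.4.2, mapped them with HISAT2 and counted them with featureCounts. They deposited a normalized signal, each gene's read count over a size factor of the library, under identifiers that the file does not pair with names. The smallest value of a library was taken as the worth of 1 read. Of the values up to 1000 reads, 100% were then whole within 0.01 reads. Reads were recovered for 23 libraries. In Empty library 19 and Lipids library 21 that worth lay close to 1, at 0.991 and 1.009, and they were left out of tests on reads. Their values were 100% whole on this measure too, so leaving them out was a choice and not forced by the values. As a check for 1 library under 2 numbers only, within-group pairs were compared by chi-square, and the lowest of 56 was 28.1 times its degrees of freedom.

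Groups were taken from the treatment label. Libraries were treated as unpaired, since the labels give each only a number of its own and name no pairs. P-values weigh a difference between groups against the spread between these fish.

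The pooled SD had 21 residual degrees of freedom. Genes named were the 2 with the highest ratio in each direction. The members and lists were chosen with earlier results of these data known. Limma 3.58.1 (R 4.3.3; 4 groups in 1 fit, trend and robust moderation) was run on log2(value + 1), and edgeR 4.0.16 and DESeq2 1.42.0 on recovered reads. Fold changes on this scale understate those of low genes. Each library left out was also kept from the filter on low values, though not from the scaling, which the authors had done beforehand. The scripts were tested on simulated data. Alternatives were to lift the filter, to ask for a mean of 50 or more, upper quartile and TMM scaling, pseudocounts of 0.1 and 5, group medians, other tests and leaving out each library. Limma on 23 libraries, all values without both Empty libraries 19 and 30 and the correlation with another pseudocount were added after the data were seen. Gene groups and sequences were not analysed here for want of names.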

Additional observations from a re-analysis of the deposited data

Results flagged for a closer look

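Dixon's criterion was applied to each measure within each group, 40 times in all, and 8 times a single library stood out. Its nominal rate is about 1 in 20. That rate does not apply to measures over the members, which were chosen by their spread in these same libraries. Nothing is therefore read from the number flagged. Several of the measures are taken over the same members and are not independent of each other.

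Cellulos library 31 was past the midpoint in 28 members, compared to 15 in the next cellulose library. When left out of the choice it was past the midpoint in 53 of 100 genes, compared to 30 in the next. Its mean distance towards the empty side over the 33 members with the empty group above was 0.84 pooled SD, where the next cellulose library had 0.12. Over the 67 members with the empty group below its distance was 0.10, within the range of the cellulose libraries. Over all members Proteins library 32 had the higher mean distance, 0.37 compared to 0.34. Cellulos library 31 also had the fewest reads of the 23 libraries with recovered reads, 10160088. The part of depth in its values was not tested.

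Lipids library 9 lay on the far side from the empty gut in the members with the empty group below, at -0.25 pooled SD, where the other lipid libraries had 0.09 or more. Proteins library 32 had a value of 341 for LABE_00077850-RA, and the next protein library 232. For LABE_00006972-RA, Cellulos library 25 had 741 and the next cellulose library 660. Genes listed at 0 numbered 308 in Proteins library 20, compared to 149 in the next protein library, and 659 in Cellulos library 27, compared to 274.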

How the results depend on the processing

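No paired analysis was made because the labels name no pairs. With a mean value of at least 50, the genes that set the empty group alone fell from 3678 to 2414, the members kept to 57, the genes with an unadjusted p under 0.01 against lipid from 150 to 97 and those against cellulose from 175 to 102. This setting tests fewer genes, and the 43 members with a lower mean could not be kept. Group medians kept 41 members and the list without Empty libraries 19 and 30 kept 34. Without these libraries limma gave 142 genes against the mean of the boluses and 288 against protein. The cause of these changes was not tested. Leaving out 1 library gave from 49 to 91 members kept, 3395 to 4398 genes that set the empty group alone, 180 (without Empty library 30) to 404 (without Empty library 15) genes against the mean of the boluses, 366 to 664 against protein, 116 to 208 against lipid, and 126 to 315 (without Empty library 15) against cellulose, where it was 293 without Empty library 26. Counts of genes at an unadjusted p under 0.01, both directions together, were set against limma on all 25 libraries. Under the other alternatives, edgeR and DESeq2 included, none moved by more than 1.5 times. EdgeR and DESeq2 used 23 libraries, however. On the same 23, limma and DESeq2 gave 120 and 202 genes against lipid, 181 and 262 against cellulose and 434 and 640 against protein. From limma on 25 libraries to DESeq2 on 23, the genes higher when empty went from 54 to 100 against lipid and from 70 to 126 against cellulose. Genes past an adjusted p of 0.05 went from 3 to 50 against protein, 0 to 7 against cellulose, 0 to 1 against lipid and 0 to 4 against the mean of the boluses. With limma on the same 23 libraries, 55 genes were higher against lipid and 69 against cellulose, and 0 passed an adjusted p of 0.05 in each comparison. The named gaps kept their direction, from which nothing is read because the genes were picked on these libraries. The median count for left-out empty libraries was 27.5 with upper quartile scaling and 30.5 with a pseudocount of 5. The share of higher members, 33 of 100, rose to 48 with a mean of at least 50 and to 42 without Empty libraries 19 and 30. It was 37 with a pseudocount of 5 and 36 with group medians. With no filter, TMM scaling or a pseudocount of 0.1 it fell to 27, and with upper quartile scaling to 30. DESeq2 split its 306 genes against the mean of the boluses nearly evenly, 150 higher and 156 lower, and edgeR its 216 genes into 120 and 96, where limma on the same 23 libraries gave 73 and 142. Low reads limit the 43 members with a mean value under 50.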
